A study of Mus musculus with 2 samples.

Results

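Interferon-activated endothelial cells of hindlimb muscle were cells of the vessel lining that carried many transcripts of 5 interferon-induced genes. They were chosen by raw counts of UMIs (unique molecular identifiers, which count captured mRNA molecules) in single-cell RNA-Seq data. A barcode entered as a cell when it had 300 to 5000 detected genes, with mitochondrial genes giving under 20% and hemoglobin beta genes under 0.25% of its UMIs. It was taken as endothelial with at least 3 UMIs summed over Pecam1, Cdh5, Kdr, Emcn, Egfl7 and Esam and at most 1 UMI summed over Pdgfra, Ptprc, Pax7 and Rgs5, which mark mesenchymal cells, leukocytes, muscle stem cells and pericytes. It was taken as interferon-activated when Gbp2, Gbp4, Gbp7, Igtp and Cd274 together had at least 10 UMIs. This left 1194 interferon-activated cells among 4541 endothelial cells and 14984 cells in all. The other 3347 endothelial cells, with a sum under 10, served for comparison and are called the other endothelial cells.

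The cells came from 24-month-old female C57Bl/6J mice, whose hindlimb muscles had been injected 3 times with either of 2 solutions. The ATRA+agonist library is from muscle given all-trans retinoic acid (ATRA, the active metabolite of vitamin A) with CD3254, which activates RXR-alpha, and BMS961, which activates RAR-gamma, and the DMSO vehicle library is from muscle given the solvent. Each group is 1 library without a replicate, made from the pooled cells of 2 mice, and the study asked what activation of the retinoic acid pathway changes in aged muscle. No test was possible, every difference below is between 2 libraries, and every interval is a 95% interval that covers counting error only, not the spread between mice.

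The libraries differed in depth and in background. UMIs summed to 65197625 over 10444 barcodes with ATRA+agonist and to 109343486 over 17394 barcodes with vehicle, and 7467 and 7517 of these barcodes passed as cells. A hemoglobin beta UMI was found in 67.4% of the interferon-activated cells with ATRA+agonist and in 96.0% with vehicle, and in 63.4% and 92.7% of the other endothelial cells. Among the cells, 12 barcodes occurred in both libraries, of which 1 belonged to an interferon-activated cell. Endothelial cells made up 30.6% of the cells with ATRA+agonist (2284 cells) and 30.03% with vehicle (2257 cells).

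Interferons reach endothelial cells through surface receptors and JAK kinases. Interferon-gamma acts mainly through promoters with the GAS motif and induces the transcription factor IRF1, whereas type I interferons act mainly through a complex that holds IRF9 and binds the ISRE motif. Guanylate-binding proteins and immunity-related GTPases attack intracellular pathogens, PD-L1 (Cd274) restrains T cells, and the MHC class I pathway displays peptides to CD8+ T cells. MHC class II, which displays peptides to CD4+ T cells, is switched on in non-immune cells by interferon-gamma through the transactivator CIITA.

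The selecting genes lie on 4 chromosomes of GRCm38, in GENCODE M21 coordinates. Gbp2 is at chr3:142620602-142638008 and Gbp7 at chr3:142530342-142550149, both on the plus strand and encoding guanylate-binding proteins. Gbp4, another guanylate-binding protein, is at chr5:105115767-105139586 on the minus strand. Igtp, which encodes the immunity-related GTPase Irgm3, is at chr11:58199556-58207591, and Cd274 is at chr19:29367455-29388095, both on the plus strand. The 250 bases before the RefSeq start (GRCm38.p6) are shown for 3 selecting genes that held an interferon motif, and for Ubd, a ubiquitin-like modifier at chr17:37193892-37196095 that differed most between the libraries. The regions are chr3:142620413-142620662 for Gbp2, chr3:142530086-142530335 for Gbp7, chr11:58199306-58199555 for Igtp and chr17:37193642-37193891 for Ubd, all read 5′ to 3′ on the plus strand. Capitals mark the ISRE letters, GAAA followed by any 2 bases and GAAA on either strand, and the GAS letters TTCNNNGAA.
Gbp2: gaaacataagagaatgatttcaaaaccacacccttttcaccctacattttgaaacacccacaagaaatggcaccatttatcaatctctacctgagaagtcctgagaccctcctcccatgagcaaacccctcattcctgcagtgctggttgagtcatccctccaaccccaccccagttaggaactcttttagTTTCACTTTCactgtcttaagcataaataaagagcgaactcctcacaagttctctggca
Gbp7: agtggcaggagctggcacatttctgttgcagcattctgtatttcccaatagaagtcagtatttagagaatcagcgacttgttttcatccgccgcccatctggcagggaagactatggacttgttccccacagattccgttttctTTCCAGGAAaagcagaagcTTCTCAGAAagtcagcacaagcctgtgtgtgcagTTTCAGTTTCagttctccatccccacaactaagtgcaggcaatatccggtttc
Igtp: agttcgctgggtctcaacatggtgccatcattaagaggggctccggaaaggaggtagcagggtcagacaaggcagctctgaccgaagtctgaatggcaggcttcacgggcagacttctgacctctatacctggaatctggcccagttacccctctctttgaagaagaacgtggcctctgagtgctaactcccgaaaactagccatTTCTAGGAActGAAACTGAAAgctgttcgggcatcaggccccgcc
Ubd: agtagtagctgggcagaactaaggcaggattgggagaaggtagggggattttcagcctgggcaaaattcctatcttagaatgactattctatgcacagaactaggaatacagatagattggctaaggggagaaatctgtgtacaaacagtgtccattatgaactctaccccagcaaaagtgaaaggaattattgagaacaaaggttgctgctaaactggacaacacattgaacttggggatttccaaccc

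An ISRE match began 59 bases before the RefSeq start of Gbp2, 53 bases before that of Gbp7 and 34 bases before that of Igtp. The RefSeq start of Gbp2 lies downstream of its GENCODE start, so that this match falls within the GENCODE span of the gene. GAS matches began 106 and 87 bases before the start of Gbp7 and 45 bases before that of Igtp. No match was found before Cd274 or Ubd, and RefSeq promoters matched 4 of the 5 selecting genes. In the 300-base windows that run from 250 bases before the start, 3.44% of 32851 mouse promoters held the ISRE letters and 8.30% the GAS letters. The interferon-induced GTPase genes outside the selection held the ISRE letters in 6 of 7 matched promoters and GAS in 4 of 7. Type I interferon response genes held the ISRE in 10 of 15 and GAS in 3 of 15, MHC class I genes in 5 of 16 and 1 of 16, and MHC class II genes in 1 of 5 and 0 of 5. A match is a description of letters and shows no binding.

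The number of interferon-activated cells differed between the libraries. With ATRA+agonist, 135 of 2284 endothelial cells reached the threshold, or 5.91% (4.98 to 6.96, Clopper-Pearson). With vehicle, 1059 of 2257 did, or 46.9% (44.8 to 49.0), a share 7.94-fold higher (6.70 to 9.4). The fold moved with the threshold, to 3.05 at 5 UMIs and 20.9 at 20 UMIs, and was 4.09 after thinning to equal depth. Of all cells, they made up 1.81% (1.52 to 2.14) and 14.1% (13.3 to 14.9). The median sum of the 5 genes over endothelial cells was 1 UMI with ATRA+agonist and 8 UMIs with vehicle, and 29.1% and 14.2% of the cells had none. The values of the 5 selecting genes chose the cells and are given as a description.

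**Figure D1:**
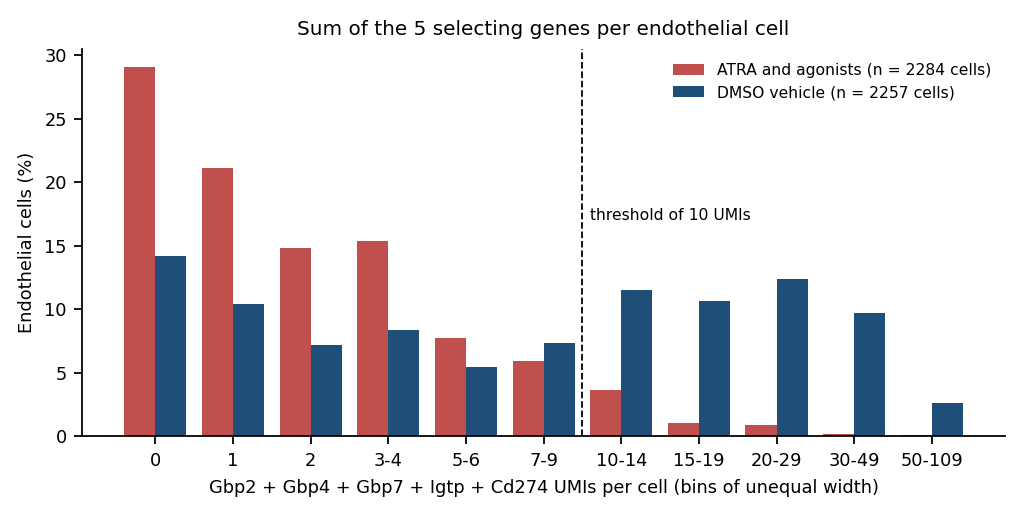
Share of endothelial cells (%, vertical axis) by the summed UMIs of Gbp2, Gbp4, Gbp7, Igtp and Cd274 per cell (horizontal axis, bins of unequal width) in the ATRA+agonist (2284 cells) and DMSO vehicle (2257 cells) libraries. Right of the dashed threshold of 10 UMIs lie 5.91% and 46.9% of the cells.

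The threshold is a sum of raw UMIs, so deeper cells reach it more easily. Among endothelial cells with under 1500 UMIs, 0 of 370 cells with ATRA+agonist (upper limit 0.992%) and 11 of 235 with vehicle (4.68%, 2.36 to 8.22) reached it. Between 1500 and 3000 UMIs the shares were 2.42% (1.39 to 3.90) and 41.9% (37.9 to 45.9), and between 3000 and 6000 they were 7.0% (5.5 to 8.74) and 56.7% (53.7 to 59.7). From 6000 UMIs on they were 20.3% (15.3 to 25.9) and 54.0% (48.3 to 59.6). The vehicle share was the higher in each of these bands of depth. When every cell was thinned to 2000 UMIs and the threshold set at 4, the shares were 251 of 1784 cells, or 14.1% (12.5 to 15.8), and 1095 of 1902 cells, or 57.6% (55.3 to 59.8). Thinning left out 500 and 355 shallower endothelial cells, among them 0 and 40 interferon-activated cells. The interferon-activated cells were deeper with ATRA+agonist (median 4807 UMIs and 2143 genes) than with vehicle (3853 UMIs and 1820 genes), while the other endothelial cells had medians of 3119 and 3057 UMIs.

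Within the chosen cells the 5 genes were also lower with ATRA+agonist. Their sum per cell had a lowest, median and highest value of 10, 13 and 86 UMIs in the 135 cells with ATRA+agonist and of 10, 20 and 109 UMIs in the 1059 cells with vehicle. A sum of at least 20 UMIs was reached by 27 of 135 and 558 of 1059 cells, and all 5 genes were detected in 34.8% and 64.5%. Gbp2 was at 649 CPM (UMIs per 1000000 UMIs of the pooled cells) with ATRA+agonist and at 1668 CPM with vehicle. Cd274 was at 756 and 1339 CPM, Gbp7 at 639 and 1058 CPM, Igtp at 244 and 676 CPM, and Gbp4 at 407 and 662 CPM. Both groups start at 10 by construction, so the ranges of the sum overlap.

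At the threshold itself, 46 ATRA+agonist and 97 vehicle cells had a sum of 10 or 11, and 88 and 102 had a sum of 8 or 9. GTPase genes outside the selection summed to 6152 CPM just inside and 6086 CPM just outside with ATRA+agonist, and to 6208 and 4715 CPM with vehicle. Genes of MHC class I summed to 7834 CPM just inside and 7832 CPM just outside with ATRA+agonist, and to 13112 and 12048 CPM with vehicle. MHC class II genes were at 776 CPM just inside and 1322 CPM just outside with vehicle. Between the 2 sides of the threshold, the intervals of GTPase and MHC class I genes overlapped with ATRA+agonist but not with vehicle. The threshold cuts a continuous range of sums, and whether these form 2 distinct populations was not tested.

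The endothelial identity of the chosen cells was checked on markers that the gate did not use. Flt1, a VEGF receptor, was at 3108 CPM with ATRA+agonist and 3339 CPM with vehicle, and Eng, a TGF-beta co-receptor, at 692 and 620 CPM. Tie1, Tek, Cldn5, Erg, Ptprb, Ramp2, Sox18 and Ly6c1 were also present in both libraries, and of the 10 such markers none differed 2-fold from the other endothelial cells. T and NK cell markers summed to 0 and 0.21 CPM, and monocyte and macrophage markers to 2.58 and 18.0 CPM. Transcripts of fibro-adipogenic progenitors (FAPs, the mesenchymal cells of muscle) were present, at 637 CPM summed over Pdgfra, Dcn, Lum, Col1a1 and Col3a1 with ATRA+agonist and at 209 CPM with vehicle. Dcn, which encodes a matrix proteoglycan, was found in 10 and 79 of the interferon-activated cells. With ATRA+agonist, 1 cell held 389 Dcn UMIs of the 494 FAP UMIs, and with vehicle 1 cell held 207 of 991. In the other endothelial cells the FAP genes summed to 686 and 2262 CPM.

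Capillary transcripts were checked against FAPs as a background. After thinning, at least 2 UMIs of capillary genes were found in 98.5% of them with ATRA+agonist and 99% with vehicle, against 96.4% and 88.8% of the other endothelial cells and 9.91% and 10.7% of FAPs. The measure is close to its maximum in endothelial cells and ranks no group of them. Fabp4, a fatty acid carrier, was at 13104 and 13993 CPM, and Cd36, a fatty acid transporter, at 1920 and 2208 CPM. At least 2 UMIs of arterial genes were found in 51.9% and 51.1%, of venous genes in 20.7% and 16.6%, and of lymphatic genes in 0.741% and 0.393%, against 11.9% and 10.2%, 6.31% and 6.57%, and 6.51% and 7.71% of FAPs. The lymphatic chemokine Ccl21a had 1 and 0 UMIs in the interferon-activated cells and was at 403 and 175 CPM in the other endothelial cells.

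The next comparison asked which other genes were high in the interferon-activated cells, within each library. It is a description, since cells selected on interferon-induced genes have to be high in genes that vary with them. Genes with at least 20 UMIs expected in the shallower group were compared, and a gene was called at an at least 2-fold difference. With ATRA+agonist 2.17% of 5849 genes were called higher and 1.38% lower in the interferon-activated than in the other endothelial cells, and with vehicle 2.08% and 7.49% of 11033 genes. The median log2 ratio over all genes was -0.08 in both libraries. Of the GTPase genes outside the selection, 8 of 11 compared were called higher with ATRA+agonist and 12 of 12 with vehicle, with median log2 ratios of 1.24 and 1.93. Iigp1, an immunity-related GTPase, had the most UMIs and was at 4965 against 2799 CPM with ATRA+agonist and at 4247 against 2023 CPM with vehicle. Gbp5 was at 281 against 64.0 CPM and at 451 against 67.1 CPM.

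Type I interferon response genes were called higher for 9 of 16 genes with ATRA+agonist and 15 of 18 with vehicle, with median log2 ratios of 1.10 and 1.32. The ubiquitin-like Isg15 was at 1264 against 654 CPM with ATRA+agonist and at 1160 against 436 CPM with vehicle, and Ifit1, a sensor of foreign RNA, at 754 against 227 CPM and 544 against 148 CPM. Of the genes for transcription factors and feedback inhibitors, 1 of 9 was called higher with ATRA+agonist and 6 of 11 with vehicle. Socs1, a feedback inhibitor of JAK kinases, was at 186 against 142 CPM and at 317 against 120 CPM. Among the receptors and kinases, 1 of 5 and 0 of 7 were called higher, and Ifngr1, a chain of the interferon-gamma receptor, was at 168 against 171 CPM and at 165 against 161 CPM.

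The antigen presentation genes separated the interferon-activated from the other endothelial cells in the vehicle library more than in the ATRA+agonist library. In the vehicle library 14 of 17 MHC class I genes were called higher, with a median log2 ratio of 1.45, and in the ATRA+agonist library 1 of 17, with a median of 0.44. That 1 gene was Tap1, a subunit of the peptide transporter, at 120 against 52.7 CPM. The light chain B2m was at 3677 against 1757 CPM with vehicle and at 1978 against 1579 CPM with ATRA+agonist. MHC class II genes were called higher for 6 of 7 genes with vehicle, with a median of 2.17, and for 0 of 4 with ATRA+agonist, with a median of -0.06. The remaining gene with vehicle, the protease Ctss, was called lower, with 2 UMIs in the interferon-activated cells. Their summed level was 2047 against 449 CPM with vehicle and 259 against 257 CPM with ATRA+agonist. The invariant chain Cd74 was at 1096 against 228 CPM and at 116 against 134 CPM. The difference of these ratios between the libraries was not tested.

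Cxcl9 and Cxcl10, ligands of CXCR3, a chemokine receptor of T cells, were at 579 against 141 CPM and 340 against 32.9 CPM with ATRA+agonist, and at 579 against 111 CPM and 217 against 31.8 CPM with vehicle. Of the leukocyte recruitment genes, 4 of 9 with ATRA+agonist and 4 of 12 with vehicle were called higher, and 0 and 1 lower. The gene called lower was Ccl2, a monocyte chemokine, with 4 UMIs in the interferon-activated cells. Of the interferon-gamma effector genes, 1 of 5 and 4 of 9 were called higher, and 0 and 1 lower, which was the complement inhibitor Serping1 at 86.8 against 181 CPM. Ido1, which degrades tryptophan, was at 24.5 against 10.2 CPM and 161 against 22.5 CPM. No capillary gene was called in either direction. Outside all gene lists, and among genes over 2-fold higher in both libraries, the 10 genes with the highest ratio in the vehicle library were Gm36043, Il18bp, Zbp1, Gm19684, Gm6034, Ms4a4d, Sp140, Ifi213, Herc6 and Dtx3l, with log2 ratios of 2.61 to 1.86. With ATRA+agonist, all but Herc6 and Dtx3l had too few UMIs to be among the genes compared. Zbp1, a sensor of nucleic acids, was at 121 against 21.8 CPM with vehicle and at 27.1 against 6.12 CPM with ATRA+agonist. Il18bp, a secreted inhibitor of IL-18, was at 68.4 against 12.3 CPM and at 25.8 against 9.51 CPM. The 5 lowest genes, Col22a1, Tenm2, Ptx4, Col11a1 and Spp1, had 0 to 3 UMIs in the vehicle cells and were at 35.5 to 124 CPM in the other endothelial cells of that library. FAP genes (209 against 2262 CPM) and the tendon genes Tnmd and Fmod (44.8 against 722 CPM) were low in the interferon-activated cells of the same library, and their part in these ratios was not tested.

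The main comparison asked how the interferon-activated cells of the ATRA+agonist library differed from those of the vehicle library. Type I interferon response genes were present at like summed levels, whereas MHC class I genes were nearly 2-fold lower and MHC class II genes far lower with ATRA+agonist. Of 5604 genes compared, 1.45% were called higher and 1.86% lower with ATRA+agonist, with a median log2 ratio of -0.01. The same threshold applied to both libraries does not make the cells equally activated, as the sums of the selecting genes show. The comparison within bands of the sum is given further on.

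MHC class I presentation genes were lower with ATRA+agonist in 17 of 17 genes, and 8 of 17 were called, while the interval of Erap1, which trims peptides, included 0. Their summed level was 8495 CPM with ATRA+agonist and 16411 CPM with vehicle, a log2 ratio of -0.95 (-0.99 to -0.91). Heavy chain H2-K1 was at 1667 and 3314 CPM, with a log2 ratio of -0.99 (-1.07 to -0.91). B2m was at 1978 and 3677 CPM, with a log2 ratio of -0.89 (-0.97 to -0.82). The immunoproteasome subunit Psmb8 was at 375 and 855 CPM, 2.28-fold lower with ATRA+agonist. Tap1 was at 120 and 330 CPM, 2.75-fold lower. H2-Q7 was lowest by ratio, at 262 and 866 CPM, but shares most of its sequence with H2-Q6, so that reads may be split between them.

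MHC class II genes were called lower for 6 of 6 genes compared and summed to 259 and 2047 CPM, a log2 ratio of -2.98 (-3.19 to -2.78). Cd74 had 90 UMIs in 12 of 135 cells with ATRA+agonist and 5191 UMIs in 377 of 1059 cells with vehicle, or 116 and 1096 CPM. Its level was 9.45-fold lower with ATRA+agonist, at a log2 ratio of -3.24 (-3.56 to -2.94). After thinning, a Cd74 UMI was found in 2.96% (0.813 to 7.41) and 32.8% (29.9 to 35.8) of the cells. In FAPs, which should lack it, the thinned shares were 1.20% and 0.876%, so that the ATRA+agonist share lay near this background. The class II chains H2-Aa, H2-Ab1 and H2-Eb1 were at 42.5, 46.4 and 30.9 CPM with ATRA+agonist and at 294, 274 and 276 CPM with vehicle. Ciita, the transactivator of these genes, had 1 UMI with ATRA+agonist and 95 UMIs with vehicle.

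Interferon-gamma effector genes were called lower for 4 of 7 genes and higher for 0 of 7. Ubd, which tags proteins for the proteasome, had 4 UMIs in 3 of 135 cells with ATRA+agonist and 1240 UMIs in 424 of 1059 cells with vehicle, or 5.16 and 262 CPM. Its level was 50.8-fold lower with ATRA+agonist, at a log2 ratio of -5.67 (-7.54 to -4.31). Thinned shares of cells with a Ubd UMI were 1.48% (0.180 to 5.25) and 27.7% (24.9 to 30.5), against 0.243% and 3.40% of the other endothelial cells and 0% and 0.0876% of FAPs. The highest vehicle cell held 117 Ubd UMIs and the highest ATRA+agonist cell 2. Wars, a tryptophan tRNA ligase, was at 186 and 676 CPM. Ido1 was at 24.5 and 161 CPM, and the death ligand Tnfsf10 at 188 and 381 CPM. Lgals9, a lectin that binds surface proteins of T cells, went the other way, at 299 and 198 CPM.

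GTPase genes outside the selection summed to 7164 and 7451 CPM, a log2 ratio of -0.06 (-0.10 to -0.02), with 2 of 12 called lower and 0 of 12 higher. This sum rested on Iigp1, which held 3851 of the 5557 UMIs with ATRA+agonist and was at 4965 and 4247 CPM, a log2 ratio of 0.23 (0.18 to 0.28). Without Iigp1 the list was at a log2 ratio of -0.54. Gbp3 was at 187 and 449 CPM, with a log2 ratio of -1.26 (-1.52 to -1.02). Gbp6 was at 223 and 421 CPM, and Gbp5 at 281 and 451 CPM. Tgtp1 was higher with ATRA+agonist, at 160 and 108 CPM, but has a near-identical copy, Tgtp2. Of the 12 genes, 2 were higher with ATRA+agonist and 9 had intervals wholly below 0, with a median log2 ratio of -0.51.

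Type I interferon response genes summed to 5889 and 5936 CPM, a log2 ratio of -0.01 (-0.06 to 0.03), with 1 of 17 called higher and 0 of 17 lower, and a median over the genes of 0.20. The gene called was Usp18, an isopeptidase that removes ISG15 and restrains type I interferon signaling, at 161 and 69.5 CPM, with a log2 ratio of 1.21 (0.90 to 1.52). Isg15 was at 1264 and 1160 CPM, Ifit1 at 754 and 544 CPM, and Ifit3 at 272 and 235 CPM. Rsad2, the antiviral protein viperin, was at 656 and 903 CPM, and Bst2, which tethers virions, at 879 and 1253 CPM. The median over the genes and the sum thus differ in sign. The sum also turned to 0.12 after the removal of candidate doublets.

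Among the transcription factors and feedback genes 2 of 10 were called lower and 0 of 10 higher. Those called were Batf2 and Irf8. Batf2 was at 23.2 and 79.2 CPM and Irf8 at 64.5 and 137 CPM, both of them interferon-gamma-induced transcription factors of immune cells. Irf1 was at 991 and 810 CPM, with a log2 ratio of 0.29 (0.18 to 0.40), and Nlrc5, the transactivator of MHC class I genes, at 223 and 222 CPM. Socs1 was at 186 and 317 CPM. Of the receptors and kinases 0 of 5 were called, and Ifngr1 was at 168 and 165 CPM. Jak2, a kinase of the interferon-gamma receptor, came nearest to a call, at 338 and 172 CPM, with a log2 ratio of 0.97 (0.77 to 1.18).

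**Figure D2:**
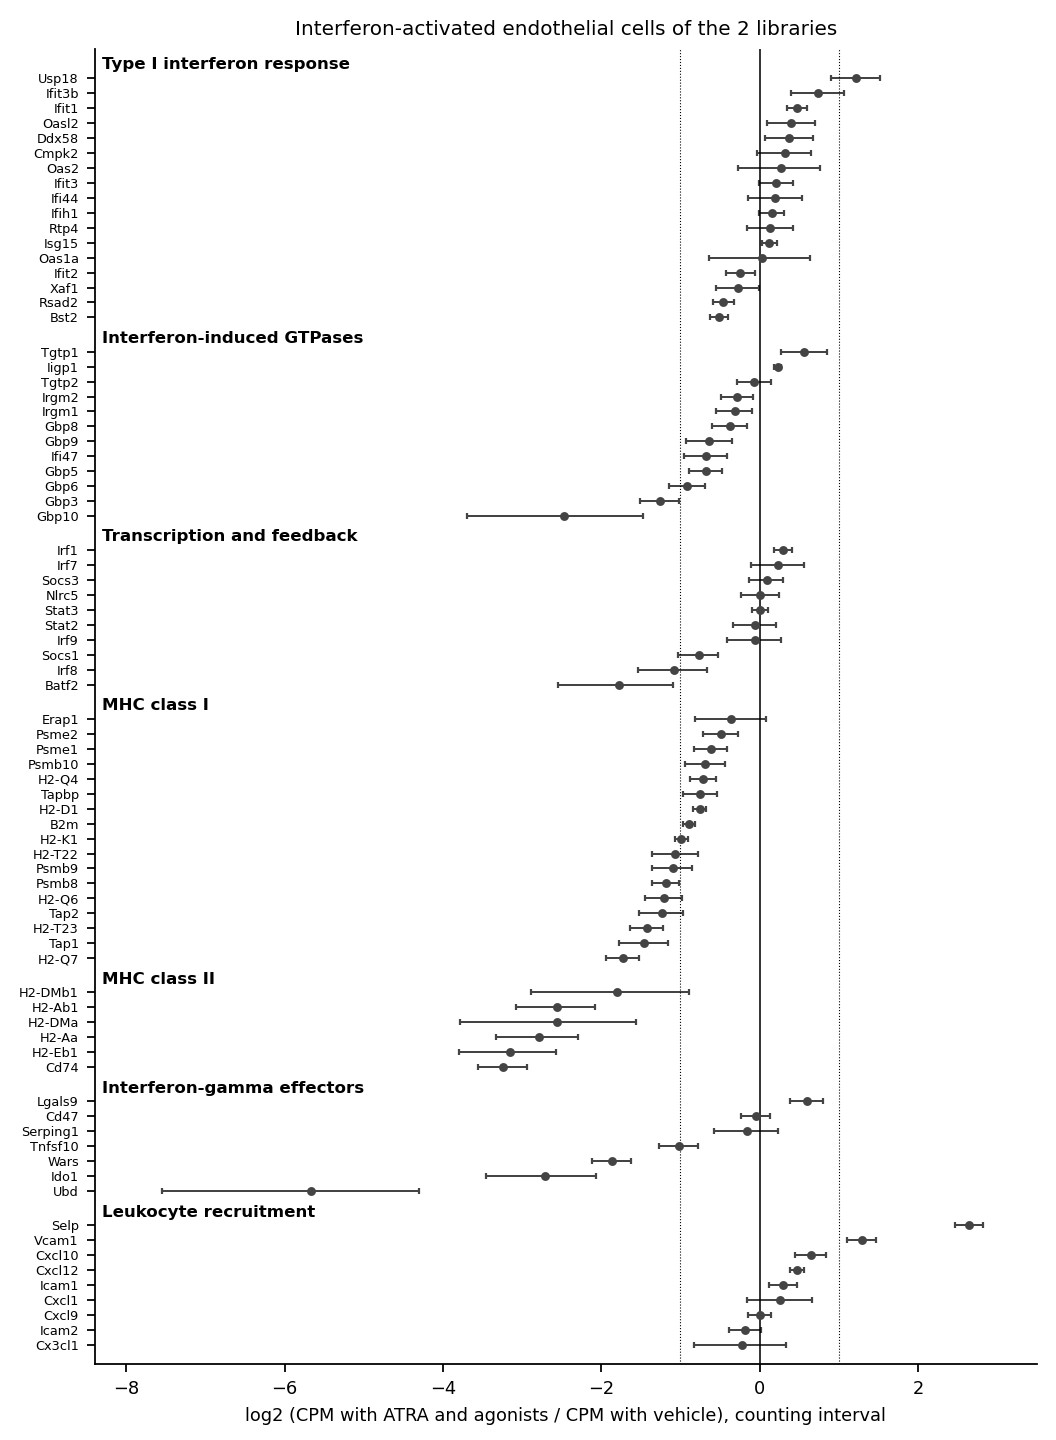
Log2 ratio of CPM, ATRA+agonist over DMSO vehicle (horizontal axis), in the interferon-activated endothelial cells (135 and 1059 cells) for each gene compared, by list, with 95% intervals of counting error and dotted lines at 2-fold. MHC class I genes lie left of 0 in 17 of 17 cases and MHC class II genes left of the 2-fold line in 6 of 6, while type I interferon response genes lie on both sides.

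The libraries were then compared within bands of the sum of the 5 selecting genes. In the band of 10 to 19 UMIs there were 108 cells with ATRA+agonist and 501 with vehicle. Type I interferon response genes were at 5569 and 5523 CPM there, a log2 ratio of 0.01 (-0.04 to 0.07). By contrast, MHC class I genes were at 7997 and 16045 CPM, a log2 ratio of -1.0 (-1.05 to -0.96), and MHC class II genes at 100 and 1492 CPM, a log2 ratio of -3.90 (-4.29 to -3.53). Psmb8 was at 346 and 840 CPM, with a log2 ratio of -1.28 (-1.49 to -1.07). Cxcl9 was at 435 and 434 CPM. Ubd had 1 UMI with ATRA+agonist and was at 197 CPM with vehicle. The selecting genes themselves were at 2236 and 3870 CPM. The ATRA+agonist cells of this band were deeper, with medians of 4540 and 3297 UMIs. Their sums also lay nearer to the threshold, as 26 of 108 and 53 of 501 cells had a sum of 10. A shared band is therefore neither a matched sum nor a matched level.

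In the band of 20 UMIs or more there were 27 and 558 cells. There MHC class I genes were at 10325 and 16647 CPM, a log2 ratio of -0.69, and MHC class II genes at 843 and 2406 CPM, a log2 ratio of -1.51. Psmb8 was at 482 and 865 CPM, with a log2 ratio of -0.84 (-1.18 to -0.52). In the band of 5 to 9 UMIs, which holds other endothelial cells, MHC class I genes were at 7680 and 10795 CPM and MHC class II genes at 178 and 967 CPM. In cells without any UMI of the 5 genes, MHC class I genes were higher with ATRA+agonist, at 5894 and 4355 CPM, and so were type I interferon response genes, at 1718 and 915 CPM. In these cells FAP genes were at 554 and 4318 CPM, tendon genes at 138 and 1586 CPM and capillary genes at 24979 and 18016 CPM, and their part in the difference was not tested. Along the sum, MHC class I genes spanned 5894 to 10325 CPM with ATRA+agonist and 4355 to 16647 CPM with vehicle, whereas type I genes ran from 1718 to 7066 CPM and from 915 to 6202 CPM.

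**Figure D3:**
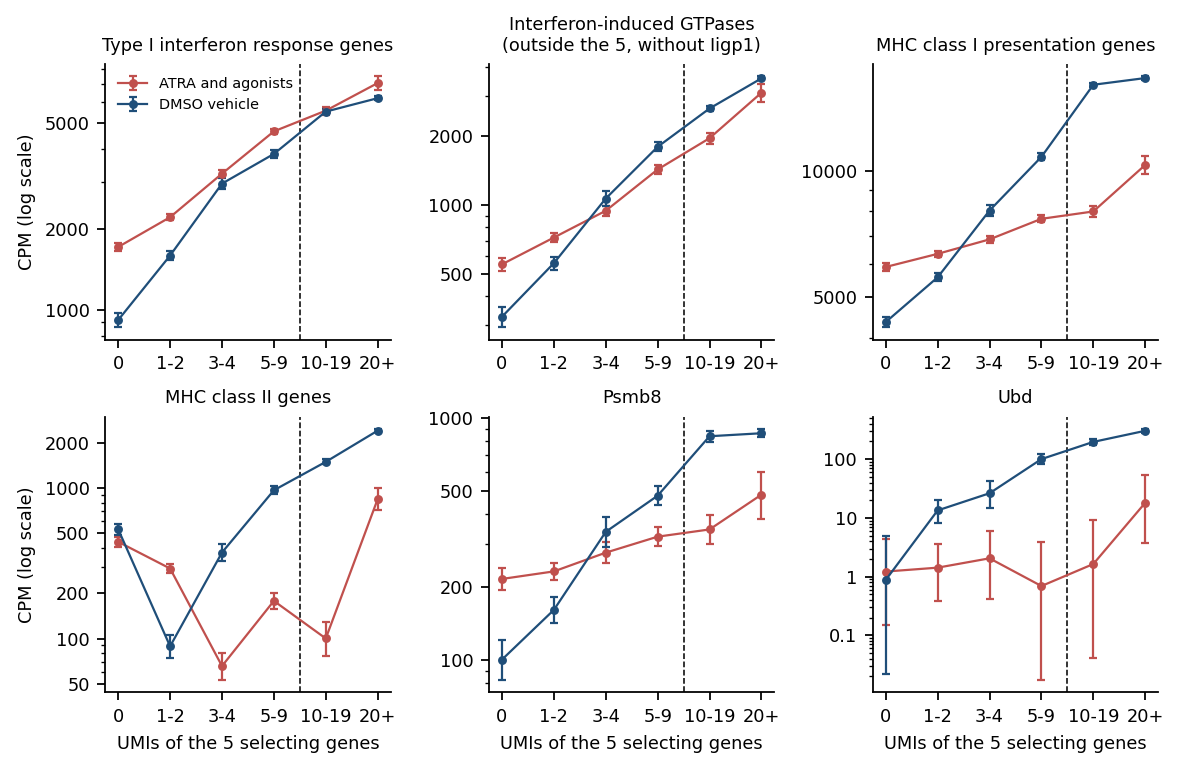
Levels (CPM, log scale, vertical axes) of 4 gene lists, Psmb8 and Ubd in endothelial cells grouped by the summed UMIs of the 5 selecting genes (horizontal axis), with 95% Poisson intervals and the threshold of 10 UMIs dashed. In the 10 to 19 band, type I interferon response genes coincide at 5569 and 5523 CPM, while MHC class I genes stand at 7997 CPM with ATRA+agonist and 16045 CPM with vehicle.

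Selp, Vcam1 and Vwf were called higher with ATRA+agonist, and few cells carried Selp and Vcam1. They account for the 2 of 9 leukocyte recruitment genes (Selp and Vcam1) and the 3 of 7 venous genes that were called higher, with 0 called lower in either list. Selp, which encodes P-selectin, had 520 UMIs in 18 of 135 cells with ATRA+agonist and 508 UMIs in 41 of 1059 cells with vehicle, or 670 and 107 CPM. Its log2 ratio was 2.64 (2.46 to 2.82). The 14 ATRA+agonist cells with the most Selp held 98.8% of its UMIs, and 1 cell held 149 of them. Vcam1, a ligand of leukocyte integrins, was at 444 and 182 CPM, with a log2 ratio of 1.29 (1.10 to 1.47), from 20 of 135 and 165 of 1059 cells. Vwf, the von Willebrand factor, was at 429 and 193 CPM and was found in 53 of 135 and 280 of 1059 cells. The removal of candidate doublets took 25 of the 135 ATRA+agonist cells (18.5%) and 55 of the 1059 vehicle cells (5.19%). Of the other endothelial cells it took 7.26% and 1.92%, so that more were taken with ATRA+agonist in both groups. After the removal, Selp was at a log2 ratio of -0.71, Vcam1 of -0.46 and the venous list of -0.62. The higher levels of Selp, Vcam1 and the venous list with ATRA+agonist were therefore not kept without the candidate doublets. Vwf alone was not computed without them. The ratio without them was -0.90 for MHC class I genes, -5.60 for Ubd and -3.90 for MHC class II genes, of which the last was -2.98 with them.

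Isg15 and Iigp1 were found in more cells. After thinning, an Isg15 UMI was found in 80.0% (72.3 to 86.4) of the ATRA+agonist cells and 75.2% (72.4 to 77.8) of the vehicle cells, and an Iigp1 UMI in 95.6% and 91.8%. FAPs also carried both, with thinned shares of 21.2% and 26.6% for Isg15 and of 53.8% and 66.2% for Iigp1. Iigp1 had a median of 25 UMIs per cell with ATRA+agonist and 16 with vehicle. For Psmb8 the thinned shares were 47.4% (38.8 to 56.2) and 78.1% (75.4 to 80.6), against 15% and 15.6% of FAPs. Cxcl9 was found in 28.9% (21.4 to 37.3) and 40.7% (37.7 to 43.8) of the cells, at 579 CPM in both libraries, and in 5.11% and 7.79% of FAPs.

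**Figure D4:**
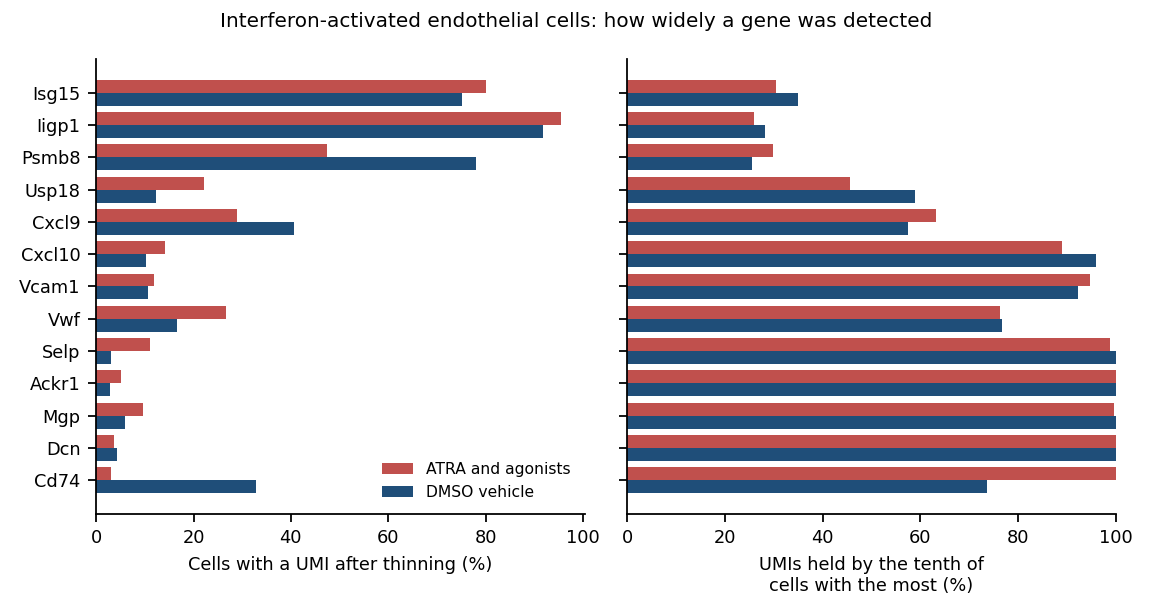
Left, share of interferon-activated cells with a UMI of each gene after thinning to 2000 UMIs (%). Right, share of each gene's UMIs held by the 14 of 135 ATRA+agonist and 106 of 1059 vehicle cells with the most. Isg15 was found in 80.0% and 75.2% of the cells, whereas 98.8% of Selp UMIs with ATRA+agonist came from 14 cells. A bar of 100% follows by construction where fewer cells carried a gene than were counted, as for Selp in 41 vehicle cells.

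By the rule for named genes, the 8 highest ratios of ATRA+agonist over vehicle in the interferon-activated cells belonged to Serpinf1, Selp, Tmem158, Kirrel3, Tox, Cytl1, Ctsh and Mgp, with log2 ratios of 3.01 to 2.31. Serpinf1, Tmem158, Tox and Ctsh had too few UMIs to be among the genes compared above. Single cells carried much of several: Serpinf1 was found in 5 of 135 ATRA+agonist cells with 43 of its 62 UMIs in 1 cell, Tmem158 in 7 cells with 39 of 56 UMIs in 1 cell, and Cytl1 in 16 cells with 95 of 218 UMIs in 1 cell. Mgp, a matrix protein of vessel walls and mesenchymal cells, was at 1428 and 287 CPM, and came from 18 of 135 and 95 of 1059 cells. With ATRA+agonist, 1 cell held 483 of the 1108 Mgp UMIs. FAP genes were at 637 and 209 CPM in the interferon-activated cells. Of their 494 UMIs with ATRA+agonist, 389 were Dcn UMIs of 1 cell. The part of FAP genes in these ratios was not tested. The 8 lowest were Ubd, Ms4a6b, Ms4a4d, Cadm2, Nkain2, Majin, Csmd1 and Thsd7b. Ms4a4d had 4 UMIs in 2 cells with ATRA+agonist and 485 UMIs in 244 cells with vehicle, a log2 ratio of -4.31. Majin had 4 UMIs in 4 cells and 360 UMIs in 194 cells. Nkain2 had 0 and 279 UMIs and Csmd1 0 and 229 UMIs, but these vehicle UMIs came from 16 and 15 cells. Schwann cell markers summed to 0 and 31.7 CPM in the interferon-activated cells, and their part in these ratios was not tested.

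Retinoid genes belong to the pathway that the injections addressed. Of 5 genes compared, 0 were called in either direction, with a median log2 ratio of -0.25. The list of 19 genes summed to 777 and 842 CPM, a log2 ratio of -0.12 (-0.24 to 0.01). Of the 5 genes, 2 had intervals wholly above 0, which are given next, and 2 had intervals wholly below 0. Cyp26b1, which degrades retinoic acid, was at 175 and 114 CPM, with a log2 ratio of 0.62 (0.33 to 0.89). Dhrs3, which reduces retinal to retinol, was at 164 and 125 CPM, with a log2 ratio of 0.39 (0.11 to 0.67). Glucocorticoid-induced genes were called lower for 2 of 9, namely Fkbp5 at 16.8 and 67.4 CPM and Zbtb16 at 74.8 and 282 CPM. In the other endothelial cells 4 of 10 were called lower. The summed list was at a log2 ratio of -0.28 in the interferon-activated and -0.46 in the other endothelial cells. Immediate early and heat shock genes, which respond to tissue dissociation, were called for 0 of 12 and summed to 16632 and 14562 CPM. Capillary genes were called for 0 of 10 and summed to 20411 and 22136 CPM.

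The other endothelial cells were compared in the same way, as 1.16% of 11145 genes were called higher and 5.99% lower with ATRA+agonist. In them type I interferon response genes were higher with ATRA+agonist, at 2789 and 2128 CPM, a log2 ratio of 0.39 (0.35 to 0.43). GTPase genes outside the selection were also higher, at 3666 and 2878 CPM, a log2 ratio of 0.35 (0.32 to 0.38). MHC class I genes were at a log2 ratio of -0.04 and MHC class II genes at -0.80. Over all endothelial cells, where the threshold selects no cells, 1.35% of 12516 genes were called higher and 4.62% lower. There the 5 selecting genes were at 796 and 3183 CPM, a log2 ratio of -2.0 (-2.04 to -1.96). GTPase genes outside the selection were at 4000 and 5272 CPM, a log2 ratio of -0.40 (-0.42 to -0.38), with 5 of 12 called lower and a median of -0.85. MHC class I genes were called lower for 7 of 17, with a median of -0.80. MHC class II genes were called lower for 6 of 7 and summed to 257 and 1286 CPM, a log2 ratio of -2.32. Type I interferon response genes were also lower over all endothelial cells, at 3085 and 4122 CPM, a log2 ratio of -0.42 (-0.44 to -0.39). Of these, 1 of 18 was called lower. The pooled endothelial cells held 5.91% and 46.9% interferon-activated cells, and the part of this mix in the pooled ratios was not tested. The like levels of type I genes given above therefore hold for the interferon-activated cells only.

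The selecting genes and the GTPase genes outside the selection, summed with Iigp1, ordered the cell classes differently. The classes differed in depth, with median UMIs of 9676 and 7802 in FAPs and 10836 and 10080 in myeloid cells. Endothelial cells had 3196 and 3505. After thinning, the shares at the threshold were 1.10% and 1.75% in FAPs and 14.1% and 57.6% in endothelial cells. In myeloid cells they were 0.949% (0.309 to 2.20) and 1.93% (0.928 to 3.51). In FAPs the 5 selecting genes together were at a log2 ratio of -0.17 (-0.26 to -0.09), and 2.68% and 3.27% of the cells had at least 10 UMIs before thinning. In muscle stem cells the shares were 1.91% and 2.18%, at a log2 ratio of -0.07. Mural cells had 0 of 208 and 0 of 258 cells at the threshold, with a log2 ratio of -0.61, and myeloid cells 2.80% (1.57 to 4.57) and 7.25% (5.18 to 9.82), with a log2 ratio of -0.69. These ratios lay nearer to 0 than the -2.0 of endothelial cells, which is a ratio of the genes that chose the cells. Summed with Iigp1, the GTPase genes outside the selection were at -0.56 (-0.59 to -0.52) in FAPs and -0.67 (-0.82 to -0.52) in mural cells. Both are lower than the -0.40 in endothelial cells. The ratio was -0.31 in myeloid cells, -0.10 in muscle stem cells and 0.18 in T and NK cells. It was 1.46 in B cells, from 16 vehicle UMIs. Without Iigp1 endothelial cells were at -1.07. The other classes were not computed without it, so that this order may rest on Iigp1. Ifng, the interferon-gamma gene, had 248 UMIs in the ATRA+agonist and 182 in the vehicle library, of which 0 and 1 were in endothelial cells. T and NK cells held 163 of these UMIs in 52 of 191 cells with ATRA+agonist and 143 in 25 of 77 cells with vehicle. The transcript of the ligand was thus found in both libraries, and whether its amount differed between the muscles cannot be told from 1 library each.

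**Figure D5:**
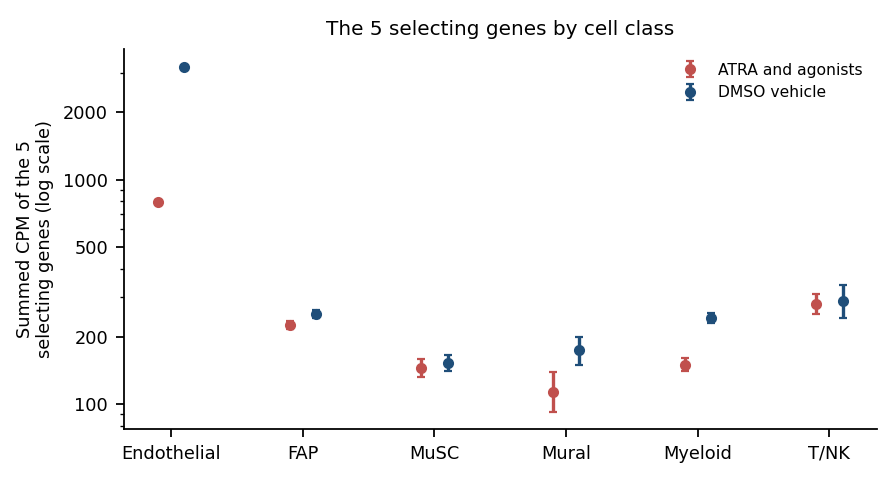
Summed CPM of Gbp2, Gbp4, Gbp7, Igtp and Cd274 (log scale, vertical axis) in 6 cell classes (horizontal axis) of the ATRA+agonist and DMSO vehicle libraries, with 95% Poisson intervals. Endothelial cells stand at 796 and 3183 CPM, above the other 5 classes plotted in both libraries.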

How the data were processed

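Single-cell RNA-Seq libraries were made by the authors with 10x Genomics 3-prime chemistry from quadriceps and gastrocnemius cells sorted with propidium iodide. The values deposited are raw UMI counts for each gene in each barcode, made by the authors with Cell Ranger 7.2.0 per the file headers, on mm10 (GRCm38). The submitters' processing notes also list kallisto 0.46.2, which was taken to belong to other samples of the study. Both matrices hold 32285 genes.

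Members were selected with the limits given in the results. Doublets were kept, and removing the 7.5% of cells nearest to artificial doublets was tried as an alternative. Counts were summed per group and divided by the UMIs of that group (CPM). Ratios have exact conditional intervals, levels Poisson and shares Clopper-Pearson intervals at 95%, and a count of 0 was taken to allow 3 counts. Genes with at least 20 UMIs expected in the shallower group were compared. Each library is 1 sample, so no test was run. Python 3.11.15, numpy 2.4.6, scipy 1.17.1 and pandas 2.3.3 were used, and the interval code was tested on simulated data. Promoters are RefSeq's, and gene positions GENCODE M21's.

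The members and gene lists were chosen with earlier results of these data known. Named were the 5 selecting genes and 2 to 4 genes per list with the most UMIs or the largest ratio. Outside all lists, the 10 highest and 5 lowest ratios of members over others with vehicle were named (at least 100 UMIs, for the highest over 2-fold in both libraries). The 8 highest and 8 lowest ratios of ATRA+agonist over vehicle within members were also named (at least 100 UMIs). Some genes are not reported here and were left out of the lists. A gene named beyond these was chosen after its values were seen. Alternatives were other thresholds, gates and filters, leaving out each selecting gene, thinning, the mean per cell and doublet removal.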

Additional observations from a re-analysis of the deposited data

Results flagged for a closer look

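Nr2f2, a transcription factor of venous identity, went in opposite directions in the libraries. With ATRA+agonist its log2 ratio of interferon-activated over other endothelial cells was 0.73 (0.42 to 1.03, at 139 against 83.8 CPM), and with vehicle it was -0.70 (-0.89 to -0.51, at 81.1 against 132 CPM). The difference was not tested, as each library is 1 sample. FAP genes were at 2262 CPM in the other endothelial cells with vehicle and at 686 CPM with ATRA+agonist, and their part in this difference was not tested.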

How the results depend on the processing

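The share of interferon-activated cells among endothelial cells, ATRA+agonist over vehicle, was 0.126 and was below 1 under all 16 alternatives. It moved to 0.0907, 0.101, 0.104 and 0.0894 when Cd274, Gbp2, Gbp4 or Gbp7 was left out of the sum, to 0.327 at a threshold of 5 and 0.0478 at 20, to 0.164 with at least 0.2% of UMIs in place of a UMI number, and to 0.244 after thinning. The ratio of GTPase genes over all endothelial cells (-0.40) was -1.07 without Iigp1, -0.37 with no UMI of the excluding genes allowed, -0.43 with an endothelial sum of at least 6, -0.57 as a mean per cell, -0.28 without the hemoglobin filter and -0.45 after thinning. Within interferon-activated cells the ratio of GTPase genes (-0.06) turned to 0.021 without the hemoglobin filter, 0.017 in cells with a sum of 10 to 19 and 0.12 at a threshold of 20. It was -0.54 without Iigp1, -0.0014 with no UMI of the excluding genes, -0.0032 as a mean per cell, -0.20 after thinning and -0.18 at a threshold of 5. The cause was not tested. The alternatives without Iigp1 and with sums of 10 to 19 were chosen after seeing the data.

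Type I interferon response genes (-0.01) turned to 0.12 without doublets, 0.050 without Gbp4, 0.10 as a mean per cell, 0.047 without the hemoglobin filter, 0.21 with 0.2% of UMIs and 0.19 at a threshold of 20. Selp turned to -0.71 without doublets and -0.37 with 0.2% of UMIs, Vcam1 to -0.46, -0.26 and, after thinning, -0.85, and the venous list to -0.62, -0.30 and -0.21. Over 19 alternatives the ratios stayed between -1.0 and -0.69 for MHC class I, -4.20 and -1.51 for MHC class II, -6.91 and -4.07 for Ubd and 0.11 and 0.34 for Iigp1. No paired analysis was possible because each group is 1 library, and for the same reason no replicate could be left out. With 135 cells and 775628 UMIs, the ATRA+agonist group limits what could be compared to 5604 genes.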
